A study of Mus musculus with 8 samples.

Results

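The genes described here are 10 regulators of the stress pathway that runs through the transcription factors ATF4 and CHOP: Atf3, Atf4, Atf5, Ddit3 (which encodes CHOP), Ddit4, Ppp1r15a, Trib3, Sesn2, Cebpb and Cebpg. They were picked by gene symbol as a known pathway, with earlier results of these data known. The table holds 54532 genes, all 10 symbols are in it, and all 10 genes are among the 11421 that were tested, those with at least 1 FPKM (fragments per gene, divided by its length and a size factor of the library) in at least 2 libraries. Cells were mouse bone marrow derived macrophages, phagocytes grown from marrow precursors. They had been given PBS, a salt buffer, or spermine, a polyamine that all cells also make, and were then sampled at 0 h or after 3 h with IFN-β, a cytokine of the type I interferon family that induces antiviral genes. PBS and spermine, each at 0 h and 3 h, thus make 4 groups of 2 libraries, and the titles number the libraries of each group 1 and 2. Strain, age and genotype of the mice, both doses and the duration of spermine treatment are not stated in the labels. The series text speaks of DMSO where the sample labels say PBS, and the extraction protocol speaks of blood where the labels say bone marrow derived macrophages. Every 3 h library had IFN-β, so time in culture and the cytokine cannot be told apart. Whether the 2 libraries of a group came from separate animals or cultures is not stated, and the p-values then measure a spread that may be technical.

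When a cell runs short of amino acids, accumulates misfolded protein or senses viral RNA, a kinase phosphorylates the translation factor eIF2. Most protein synthesis then slows while the ATF4 mRNA is translated more, and ATF4, a basic leucine zipper (bZIP) protein, switches on genes for amino acid uptake and for further regulators such as CHOP, ATF3 and TRIB3. Several of these feed back on the pathway, and others restrain the growth kinase mTORC1. In macrophages, ATF3 is known as a brake on inflammatory genes and C/EBPβ as a factor of their differentiation and activation.

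Reads rebuilt from the deposited values came to between 15723437 and 17744844 per library, and the 10 genes held between 7 reads (Ddit4, PBS 3 h replicate 1) and 17390 reads (Atf3, spermine 3 h replicate 2). All 8 macrophage markers on the list, among them Adgre1, Cd68 and Csf1r, were present, with a summed level of 11204 to 13807 FPKM per library. Cd3e, Cd3d and Cd3g of T cells, the 4 red cell genes, Ly6g of neutrophils and Ncr1 of NK cells were at 0 in every library. The sum over 6 neutrophil markers was 5.05 to 8.32 FPKM per library, and S100a8 and S100a9 were the 2 of them to reach 1 FPKM in 2 libraries. The sum over 3 endothelial markers was 2.62 to 3.03 FPKM at 0 h and 20.0 to 39.1 at 3 h, of which Kdr was the only member to reach 1 FPKM in 2 libraries. The sum over 4 dendritic cell markers was 0.325 to 1.19 at 0 h and 3.22 to 6.54 at 3 h, and the part of either in the IFN-β results was not tested. In bulk RNA, a change in the number of cells of one type and a change in RNA per cell cannot be told apart. Changes are on the log2(FPKM + 1) scale, where those of genes with little RNA come out too small, and a gene is said to have risen or fallen where limma's adjusted p was under 0.05. The deposited scale keeps the median gene near no change, so each change is relative to that gene. Rescaling to TPM, where each library sums to the same total, shifted all genes by a median of -0.46 for IFN-β in PBS, -0.33 for IFN-β with spermine, -0.34 and -0.20 for spermine at 0 h and 3 h, and 0.14 for the difference of the IFN-β responses. With that rescaling the share of changed genes that rose went from 49.6% to 21.1% for IFN-β in PBS, from 47.1% to 21.5% for IFN-β with spermine, from 53.3% to 20.0% and from 49.2% to 26.7% for spermine at 0 h and 3 h, and from 42.9% to 67.1% for the difference. Quantile normalization gave 36.6% and 33.6% for IFN-β in PBS and with spermine.

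Spermine raised most of the 10 regulators. Compared with PBS at 0 h, 8 rose, none fell, and Cebpb and Cebpg did not pass the test. Among all genes tested, 41.2% changed in that comparison, 22.0% rising and 19.2% falling. Compared with PBS at 3 h of IFN-β, 9 rose and only Cebpg did not pass, against 40.5% of all genes that changed, 19.9% rising and 20.6% falling. The median log2 change over the 10 genes was 1.24 at 0 h and 1.78 at 3 h, beside 0.013 and -0.0028 over all genes tested. For the 9 genes other than Cebpg, the spermine libraries lay above the PBS libraries of the same time. Those of Cebpg lay below at 0 h and overlapped at 3 h. How many of all genes separate in this way was not counted, so the separation is only a description. The comparisons of spermine and of IFN-β share libraries, so their values are set side by side and no overlap between them is read.

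**Figure D1:**
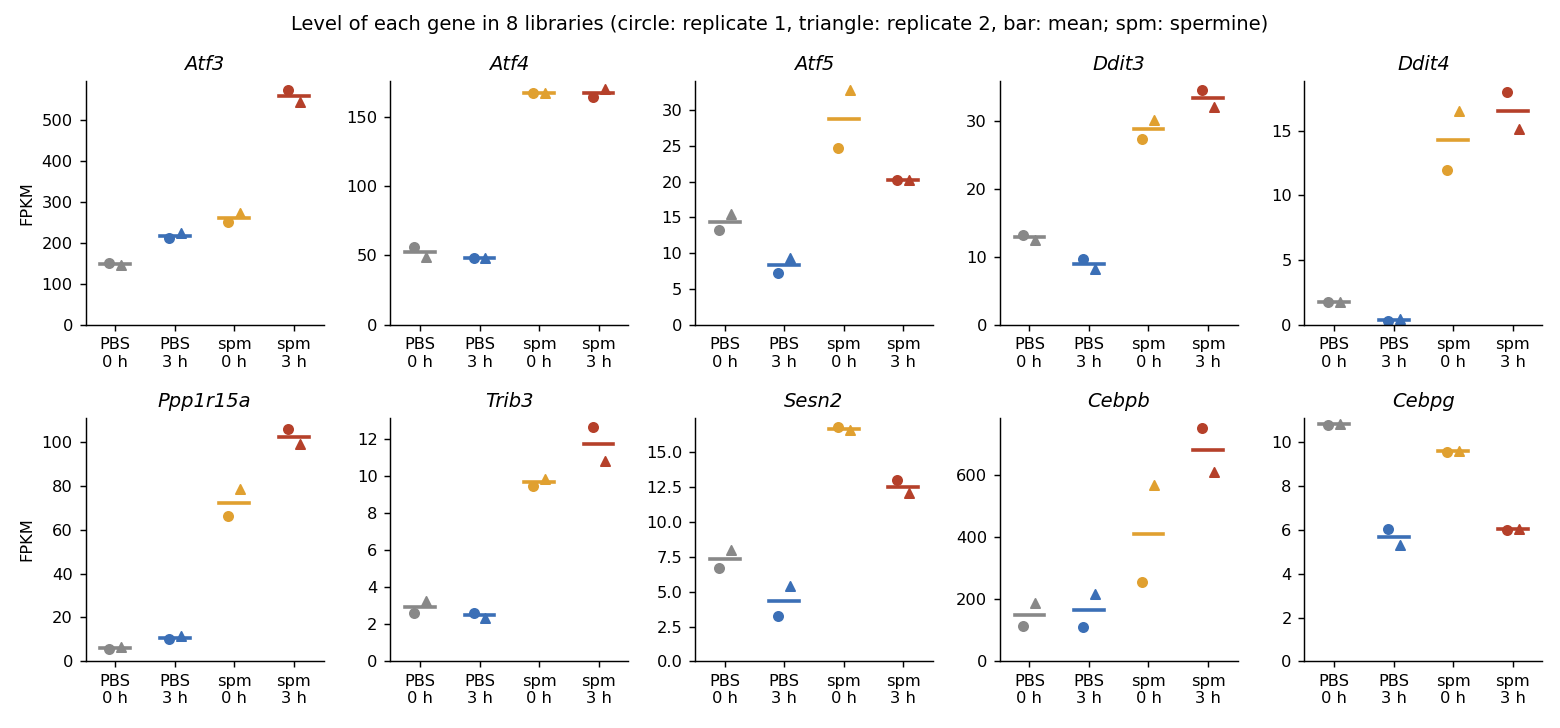
FPKM of each of the 10 genes (vertical axis, linear from 0, a scale of its own per gene) in each of the groups; circles are replicate 1, triangles replicate 2 and bars the group mean. In 9 genes both spermine groups lie above both PBS groups, while Cebpg is high at 0 h and low at 3 h.

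Atf4 (ENSMUSG00000042406, chromosome 15, 80255184 to 80257541, plus strand, GRCm38) encodes the central activator of the pathway. Its mRNA stood at 56.0 and 49.0 FPKM in PBS at 0 h, 48.1 and 48.2 in PBS at 3 h, 167.0 and 166.8 in spermine at 0 h, and 164 and 170 in spermine at 3 h. The 4 spermine libraries thus lay within a narrow band above all 4 PBS libraries. The level was 3.18-fold higher with spermine at 0 h (log2 change 1.65 ± 0.07 SE, adjusted p = 1.9e-05 by limma) and 3.46-fold higher at 3 h (1.77 ± 0.07, adjusted p = 1.4e-05). With IFN-β the means in spermine were 167 FPKM at both times, and the 95% interval of the change ran from -0.18 to 0.18. In PBS the change was -0.12 (interval -0.30 to 0.06), and the libraries did not overlap. Under other scalings Atf4 did fall with IFN-β, by 0.59 (TPM) and 0.72 (quantile normalization) in PBS and by 0.34 and 0.50 with spermine. ATF4 protein, which is controlled through translation, was not measured.

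Cebpg and Cebpb encode bZIP proteins that pair with ATF4. Cebpg (ENSMUSG00000056216, chromosome 7, 35046422 to 35056573) stood at 10.8 FPKM in both PBS 0 h libraries, 6.05 and 5.31 in PBS at 3 h, 9.58 and 9.61 in spermine at 0 h, and 6.02 and 6.05 in spermine at 3 h. It was the only one of the 10 called for spermine at neither time. With IFN-β it fell by 0.83 in PBS (± 0.08 SE, adjusted p = 1.1e-04) and by 0.59 with spermine (± 0.08, adjusted p = 9.2e-04). With spermine its change was -0.16 at 0 h (interval -0.34 to 0.02) and 0.08 at 3 h (interval -0.10 to 0.26; -0.11 after TPM rescaling). At 0 h the spermine libraries were below both PBS libraries, and Cebpg was called lower there with TPM (-0.51), quantile normalization (-0.29) and a correction for GC content (-0.29).

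Cebpb (ENSMUSG00000056501, chromosome 2, 167688915 to 167690418), an inflammatory activator made from a gene with no intron, was the highest of the 10 by FPKM in the spermine 3 h group. Its levels were 114 and 187 FPKM in PBS at 0 h, 110 and 219 in PBS at 3 h, 255 and 567 in spermine at 0 h, and 752 and 610 in spermine at 3 h. All spermine libraries lay above all PBS libraries, but within a group the libraries differed by up to 2.23-fold. At 3 h Cebpb rose with spermine (2.12 ± 0.46 SE, adjusted p = 0.011), though not when PBS 3 h replicate 1 (1.63) or spermine 3 h replicate 1 (1.97) was left out. At 0 h the change of 1.37 ± 0.46 did not pass (adjusted p = 0.051). It did pass with limma voom on rebuilt reads (1.39), with the GC correction (1.53), and without spermine 0 h replicate 1 (1.95) or either PBS 3 h library (1.37). Of its exon bases 312, or 20.7%, overlap Tmem189 on the other strand, a gene of up to 5652 reads, and the labels do not state the strand of counting.

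Atf3 (ENSMUSG00000026628, chromosome 1, 191170296 to 191218039, minus strand) encodes a bZIP repressor that stress and inflammatory signals induce in macrophages. Its RefSeq promoter is shown, with stretches of 30 bases from the windows of Atf3, Ppp1r15a and Ddit3. A window runs from 250 bases before to 50 bases after the annotated start (RefSeq, GRCm38.p6). These genes hold, before that start, a sequence that ATF, CREB or AP-1 proteins are known to bind. The Ppp1r15a window also holds exon bases of Plekha4, and the Ddit3 window those of Gm4189. Each line reads 5′ to 3′ along the gene and the capitals mark the match. The first is chr1:191183341-191183583, minus strand, 243 bases that end 7 bases before the start of the Atf3 transcript used by RefSeq, with a CARE (C/EBP-ATF response element, TGATGNAA, here on the opposite strand) 110 bases before the start. The second is chr1:191183325-191183354, minus strand, with a CRE-like element (TGACGTNA, here on the opposite strand) 10 bases before the same start. The third is chr7:45526262-45526291, minus strand, with a CRE-like element 12 bases before the start of Ppp1r15a. The fourth is chr10:127290543-127290572, plus strand, with an AP-1 element (TGANTCA) 242 bases before the start of Ddit3.
Atf3 promoter: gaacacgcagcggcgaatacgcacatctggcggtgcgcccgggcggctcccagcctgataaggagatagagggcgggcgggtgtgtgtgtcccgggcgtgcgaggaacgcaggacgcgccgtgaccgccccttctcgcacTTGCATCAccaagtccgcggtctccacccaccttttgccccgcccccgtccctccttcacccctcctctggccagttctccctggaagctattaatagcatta
Atf3 CRE-like element: tattaatagcaTTACGTCAgcctgggattg
Ppp1r15a CRE-like element: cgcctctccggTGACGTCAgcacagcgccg
Ddit3 AP-1 element: cgcgcgcaTGACTCActcacctcctccgcg
Searched on both strands, the CARE was found in 2 of the 11 windows of the 10 genes (Atf3, and Trib3 behind its start; Atf5 has 2 windows) and in 3.97% of all 32851 RefSeq windows of that length. The CRE-like element was in Atf3 and Ppp1r15a and in 2.93% of all windows. The AP-1 element was in Ddit3 and in 7.81% of all windows. The antioxidant element TGACNNNGC was in Cebpb, Ppp1r15a and Sesn2 and in 12.4% of all windows, and a pattern of the interferon-stimulated response element in Ppp1r15a and in 3.44%. No match in the windows of these genes overlapped another. A match is a description of letters, and binding was not measured.

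Atf3 mRNA stood at 151 and 146 FPKM in PBS at 0 h, 211 and 224 in PBS at 3 h, 249 and 274 in spermine at 0 h, and 573 and 544 in spermine at 3 h. The 4 groups did not overlap and ran in that order. Atf3 rose with spermine at 0 h (0.81 ± 0.07 SE, adjusted p = 2.5e-04) and at 3 h (1.36 ± 0.07, adjusted p = 3.5e-05), a 1.76-fold and a 2.57-fold difference of means. With IFN-β it rose 1.47-fold in PBS (0.55 ± 0.07, adjusted p = 7.3e-04) and 2.14-fold with spermine (1.09 ± 0.07, adjusted p = 3.7e-05), although the change in PBS was 0.08 after TPM rescaling and turned to -0.13 after quantile normalization, neither past the test. After quantile normalization the changes were 0.45 for IFN-β with spermine and 0.46 for spermine at 0 h, where TPM gave 0.47, and these passed.

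Ddit3 (ENSMUSG00000025408, chromosome 10, 127290774 to 127296288) encodes CHOP, which pushes cells under lasting stress towards death. It stood at 13.2 and 12.5 FPKM in PBS at 0 h, 9.62 and 8.20 in PBS at 3 h, 27.3 and 30.2 in spermine at 0 h, and 34.6 and 32.0 in spermine at 3 h. No group overlapped another, and IFN-β went with a lower level in PBS and a higher one with spermine. Ddit3 rose with spermine at 0 h (1.10 ± 0.09 SE, adjusted p = 2.2e-04) and at 3 h (1.79 ± 0.09, adjusted p = 3.3e-05). With IFN-β it fell by 0.49 in PBS (adjusted p = 0.0046), while the change of 0.21 with spermine did not pass (adjusted p = 0.13) and was -0.12 after TPM rescaling and -0.07 after quantile normalization. It was called higher with the GC correction (0.26, adjusted p = 0.043). A second gene row named Ddit3 (ENSMUSG00000116429), whose 105 exon bases all lie in the first, is listed at 0 in every library and was not used.

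Atf5 (ENSMUSG00000038539, chromosome 7, 44812256 to 44816658), a relative of ATF4 that governs the mitochondrial stress response, stood at 13.2 and 15.5 FPKM in PBS at 0 h, 7.30 and 9.29 in PBS at 3 h, 24.7 and 32.8 in spermine at 0 h, and 20.3 in both spermine 3 h libraries. Its groups did not overlap, and each 3 h group lay below its 0 h group. Spermine raised it 2.00-fold at 0 h (0.94 ± 0.16 SE, adjusted p = 0.0036) and 2.44-fold at 3 h (1.203 ± 0.16, adjusted p = 0.0014). IFN-β lowered it in PBS (-0.73 ± 0.16, adjusted p = 0.0078), though not with PBS 0 h replicate 2 left out (-0.62). The change with spermine was -0.47 (adjusted p = 0.052). That change passed after TPM rescaling (-0.81), quantile normalization (-0.70), the GC correction (-0.58), in voom (-0.49), without spermine 0 h replicate 1 (-0.67) and without either PBS 3 h library (-0.47). Of its exon bases 4.11% overlap Nup62 and Il4i1 on the other strand.

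Ppp1r15a (ENSMUSG00000040435, chromosome 7, 45522916 to 45526268) encodes GADD34, which guides a phosphatase to eIF2 and so ends the block of translation. It had the largest log2 change of the 10 genes at 0 h. Its levels were 5.52 and 6.47 FPKM in PBS at 0 h, 10.1 and 11.6 in PBS at 3 h, 66.3 and 78.4 in spermine at 0 h, and 106 and 98.9 in spermine at 3 h. The lowest spermine library was far above the highest PBS library. The mean was 12.1-fold higher with spermine at 0 h (3.39 ± 0.11 SE, adjusted p = 7e-06) and 9.43-fold higher at 3 h (3.13 ± 0.11, adjusted p = 8e-06). IFN-β raised it 1.81-fold in PBS (0.76 ± 0.11, adjusted p = 0.0014), where TPM gave 0.37. With spermine the rise was 1.42-fold (0.50 ± 0.11, adjusted p = 0.013), and this call was lost after TPM rescaling (0.17) or quantile normalization (0.02) and without spermine 0 h replicate 1 (0.38) or spermine 3 h replicate 1 (0.45).

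Trib3 (ENSMUSG00000032715, chromosome 2, 152337422 to 152344032) encodes a pseudokinase that CHOP and ATF4 induce and that holds ATF4 and AKT in check. It stood at 2.63 and 3.27 FPKM in PBS at 0 h, 2.63 and 2.36 in PBS at 3 h, 9.49 and 9.86 in spermine at 0 h, and 12.6 and 10.8 in spermine at 3 h. Both spermine groups lay above every PBS library, and the PBS groups nearly touched. Trib3 rose 3.28-fold at 0 h (1.44 ± 0.11 SE, adjusted p = 1.4e-04) and 4.69-fold at 3 h (1.86 ± 0.11, adjusted p = 5.3e-05). With IFN-β the change was -0.17 (interval -0.44 to 0.09) in PBS, called lower after TPM rescaling (-0.64), and 0.25 (interval -0.02 to 0.51) with spermine, or -0.06 after TPM rescaling.

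Ddit4 and Sesn2 encode brakes on mTORC1, REDD1 and sestrin 2. Ddit4 (ENSMUSG00000020108, chromosome 10, 59949669 to 59951834) had the widest range of the 10, with 1.77 and 1.75 FPKM in PBS at 0 h, 0.286 and 0.423 in PBS at 3 h, 11.9 and 16.5 in spermine at 0 h, and 17.9 and 15.1 in spermine at 3 h. The PBS 3 h values rest on 7 and 12 reads, while the spermine libraries hold 347 to 528. Spermine raised it 8.09-fold at 0 h (2.45 ± 0.15 SE, adjusted p = 5.9e-05) and 46.7-fold at 3 h (3.69 ± 0.15, adjusted p = 1.3e-05). IFN-β in PBS left it 4.96-fold lower, with means of 1.76 and 0.355 FPKM (-1.03 ± 0.15, adjusted p = 0.0014). This log2 change was -2.05 with a pseudocount of 0.1, -1.997 after TPM rescaling and -2.26 in voom. With spermine the 0 h and 3 h libraries overlapped (0.21, interval -0.15 to 0.58; -0.10 after TPM rescaling), and the change passed only without spermine 0 h replicate 2 (0.43).

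Sesn2 (ENSMUSG00000028893, chromosome 4, 132492032 to 132510501) stood at 6.72 and 8.01 FPKM in PBS at 0 h, 3.24 and 5.38 in PBS at 3 h, 16.8 and 16.6 in spermine at 0 h, and 13.0 and 12.1 in spermine at 3 h. As with Atf5, no group overlapped another and spermine 0 h was the highest. It rose with spermine 2.27-fold at 0 h (1.08 ± 0.18 SE, adjusted p = 0.0037) and 2.91-fold at 3 h (1.38 ± 0.18, adjusted p = 0.0014). With IFN-β it fell in PBS (-0.68 ± 0.18, adjusted p = 0.019). That call was lost with no filter on low values, in a fit of only the PBS groups and without PBS 0 h replicate 2 (-0.57), and the change was -0.39 without PBS 3 h replicate 1. The change with spermine was -0.39 (adjusted p = 0.14), called lower after TPM rescaling (-0.73), in voom (-0.42), after the GC correction (-0.47) and in a fit of only the spermine groups (-0.39).

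With IFN-β in PBS, 2 of the 10 regulators rose (Atf3 and Ppp1r15a), 5 fell (Atf5, Cebpg, Ddit3, Ddit4 and Sesn2) and 3 did not pass. Among all genes 49.6% changed, 24.6% rising and 25.0% falling. With IFN-β in spermine-treated cells 2 rose, again Atf3 and Ppp1r15a, 1 fell (Cebpg) and 7 did not pass, beside 19.7% of all genes that rose and 22.1% that fell. A count of 3 changed genes of 10 is below the 41.7% of all genes that changed with IFN-β and spermine. The count rose without either PBS 3 h library, as did the number called over all genes. The median log2 change over the 10 genes was -0.33 with IFN-β in PBS and 0.21 with spermine, beside -0.016 and -0.013 over all genes.

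The difference between the IFN-β responses, spermine minus PBS, was tested directly. It was positive for Atf3 (0.55 ± 0.10 SE, adjusted p = 0.018), Ddit3 (0.69 ± 0.13, adjusted p = 0.020) and Ddit4 (1.24 ± 0.22, adjusted p = 0.015). So 3 of 10 genes were called with a more positive response to IFN-β with spermine and none with a less positive one, where 13.6% of all genes differed, 5.82% with a higher and 7.75% with a lower response. Atf3 rose with IFN-β in both settings and more with spermine. Ddit3 and Ddit4 fell in PBS, and under spermine each had a change of 0.21 that did not pass. Calls among these 3 were lost without any single PBS 0 h or spermine 3 h library. Leaving out replicate 1 of PBS 3 h or of spermine 0 h also lost calls. Fewer of all genes were called in each of these fits as well. Where a call was lost, the log2 difference was 0.48 to 0.58 for Atf3, 0.62 to 0.75 for Ddit3 and 1.13 to 1.25 for Ddit4. For the other 7 genes the difference did not pass, with intervals of -0.13 to 0.37 for Atf4, -0.65 to 0.12 for Ppp1r15a and 0.05 to 0.80 for Trib3. Other fits did call some of these: the Ppp1r15a difference was called negative by limma after quantile normalization (-0.69, adjusted p = 0.027) and with the GC correction (-0.42, adjusted p = 0.022). A replicate block with crossed numbers for spermine 3 h also called it by limma (-0.26, adjusted p = 0.049). The GC correction and that block were added after seeing the data. The crossed block called 2843 of all genes for the difference, against 1550. The Cebpg difference was called positive with the GC correction (0.39, adjusted p = 0.024).

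**Figure D2:**
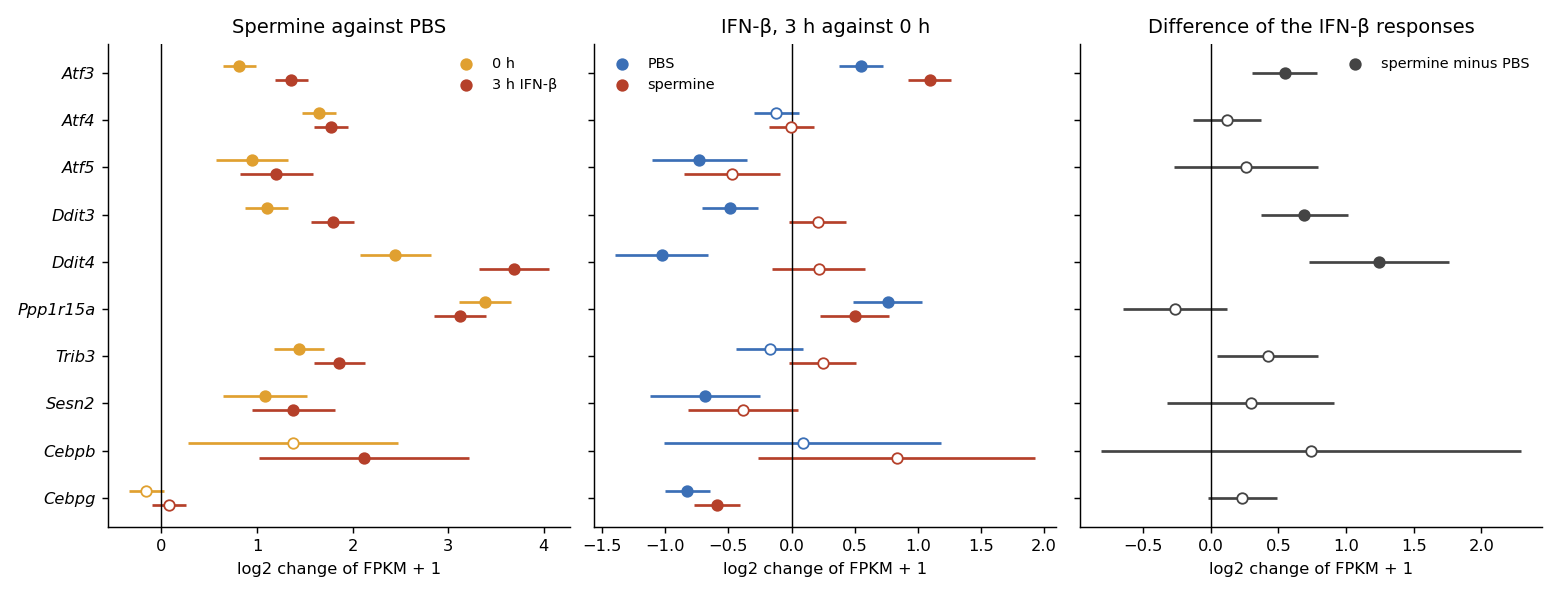
Log2 change of FPKM + 1 (horizontal axes) of each gene of spermine against PBS, of IFN-β at 3 h against 0 h, and of the difference between the IFN-β responses; points are estimates, lines 95% intervals and filled points an adjusted p under 0.05. The spermine changes of 9 genes lie to the right of 0, the IFN-β changes lie on both sides, and 3 filled points mark Atf3, Ddit3 and Ddit4 in the right panel.

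The 2 libraries of a group agreed to different degrees across the 10 genes. For Cebpb the pooled within-group SD of log2(FPKM + 1) was 0.60, at the 97.9th percentile of all genes tested, and for Cebpg it was 0.06, at the 13.9th. Replicate 1 minus replicate 2 of Cebpb was -0.71, -0.98 and -1.15 in PBS 0 h, PBS 3 h and spermine 0 h, and 0.30 in spermine 3 h. Over 11410 genes the same difference went with the GC content of the transcript, with Pearson's r of -0.30, -0.45, -0.39 and 0.13 in those groups. These are correlations across genes within single pairs of libraries, and genes are not independent replicates. Cebpb has a GC content of 67.2%, at the 99.7th percentile, and Atf5 of 61.7%, at the 98.2nd. The difference between replicates of Atf5 was -0.22, -0.31, -0.40 and 0.00053. Of the 10 genes 8 have a GC content above the median of 49.4%. The part of GC content in the replicate differences was not tested. With the GC correction all 10 genes were called for spermine at 0 h, Cebpg as lower, where 5691 of 11410 genes were called.

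**Figure D3:**
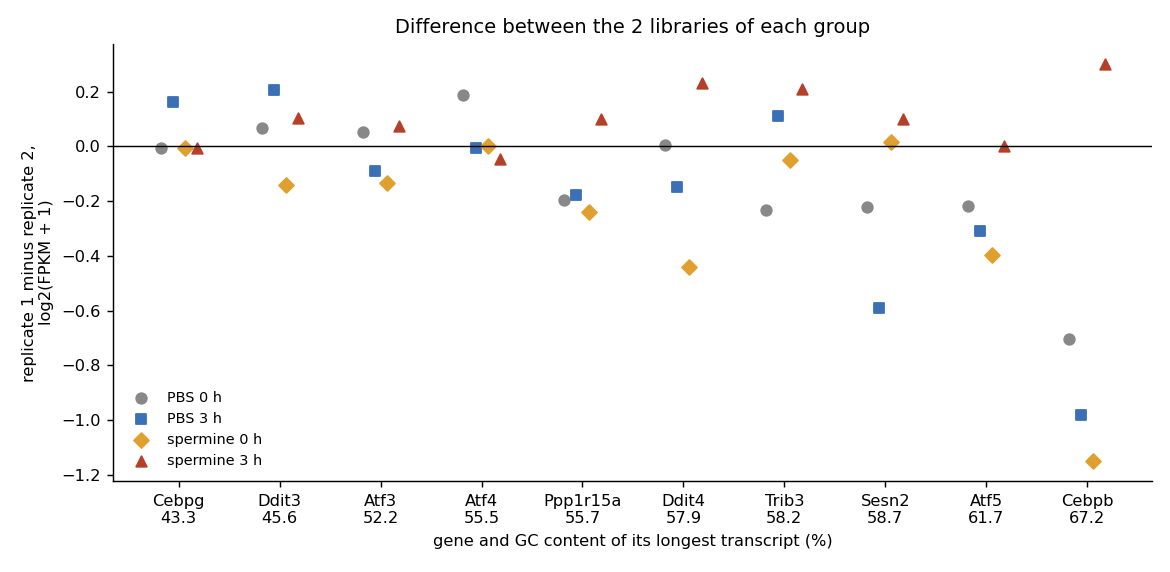
Replicate 1 minus replicate 2 on the log2(FPKM + 1) scale (vertical axis) for each gene, ordered by the GC content of its longest transcript in percent (horizontal axis); symbols are the 4 groups. Cebpb, with the highest GC content, has the widest spread, from -1.15 to 0.30. Spermine 3 h lies below 0 for Atf4 (-0.047) and Cebpg (-0.0053) and at or above 0 for the other genes, of high and low GC content.

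Most of the 10 genes have a compact layout. The median span of the 10 from first to last base is 4959 bases. It is 23074 for the 9810 protein-coding genes tested, and 9 of the 10 are below that median. Sesn2, with 18470 bases, is at the 42.8th percentile of those genes. Atf3 is the exception with 47744 bases. Cebpb spans 1504 bases and Ddit4 2166. Over the 8 libraries the levels of most pairs moved together: Pearson's r of log2(FPKM + 1) was highest for Ddit3 with Ddit4 (0.994) and lowest for Atf3 with Cebpg (-0.593). Atf5 and Sesn2 formed another close pair (0.977), and Atf3 and Atf5 a loose one (0.412). These are descriptions over 8 libraries in 4 groups, which differ mainly by group.

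Outside the 10, the genes whose levels followed each regulator most closely were found among 2109 protein-coding genes that varied across the libraries. Closest to Atf4 were Ifrd1 (r = 0.998), Ubap1 (0.997) and Gclm (0.997), and Ifrd1 had group means of 4.11, 3.49, 55.2 and 47.4 FPKM (PBS at 0 h and 3 h, then spermine at 0 h and 3 h). Closest to Ddit3 were Fbxo34 (0.994), Tob1 (0.993) and Wsb1 (0.991), and Fbxo34 also led for Ddit4 (0.996). Zfp36, with means of 97.1, 211, 245 and 763 FPKM in the same order of groups, was closest to Atf3 (0.995). Insig1 was closest to Ppp1r15a (0.999), Dnajb1 to Trib3 (0.997), Zswim4 to Atf5 (0.994), Homer3 to Sesn2 (0.990), Gm10382 to Cebpb (0.994) and Cd3eap to Cebpg (0.994).

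The genes that sense stress and act on eIF2 went both ways with spermine. Of 18 such genes tested, 5 rose and 4 fell at 0 h, and 2 rose and 3 fell at 3 h, with median log2 changes of 0.06 and 0.02 (0.013 and -0.0028 over all genes). These are 50% and 27.8% of the list, where 41.2% and 40.5% of all genes changed. The count at 0 h was lower without PBS 0 h replicate 2 or either spermine 0 h library. That at 3 h was lower without spermine 3 h replicate 1. Fewer of all genes were called in those fits as well. Impact, an inhibitor of the eIF2 kinase GCN2, stood out with 11.3 ± 0.102 FPKM in PBS and 53.6 ± 6.62 in spermine at 0 h (2.15 ± 0.10 SE, adjusted p = 2.2e-05) and with 5.04 ± 0.548 and 38.1 ± 0.621 at 3 h (2.70 ± 0.10, adjusted p = 8.8e-06; levels are mean ± SD, n = 2 libraries). The eIF2 subunits Eif2s2 (0.81) and Eif2s1 (0.67) rose at 0 h, as did Dnajc3 (0.28), and Ppp1ca rose at 3 h (0.23). Gcn1l1 fell at 0 h (-0.35) and at 3 h (-0.45). Eif2b1 (-0.34) and Eif2b4 (-0.31) fell at 0 h, and Nck1 fell at 3 h (-0.33).

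Of the 4 eIF2 kinases, 1 rose and 1 fell with spermine at 0 h. Eif2ak4, the amino acid sensor GCN2, rose with spermine at 0 h (0.48, adjusted p = 0.0028) and had a change of 0.23 at 3 h that did not pass. Eif2ak2, the RNA sensor PKR and itself an interferon-induced gene, fell with spermine at 0 h (-0.45, adjusted p = 0.017) and at 3 h (-0.69, adjusted p = 0.0031). Eif2ak1, the haem-regulated kinase, changed by -0.02 and -0.11, and Eif2ak3, the endoplasmic reticulum sensor PERK, by -0.14 and 0.07, none past the test.

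With IFN-β, 3 of the 18 rose and 5 fell in PBS, and 2 rose and 4 fell with spermine. The shares changed, 44.4% and 33.3%, are below the 49.6% and 41.7% of all genes. Eif2ak2 went from 7.26 ± 0.404 to 149 ± 21.4 FPKM in PBS (4.17 ± 0.11 SE, adjusted p = 2.5e-07) and from 5.06 ± 0.255 to 91.8 ± 6.51 with spermine (3.93 ± 0.11, adjusted p = 4e-07). Eif2ak3 fell by 1.29 and by 1.08, and Eif2ak4 fell by 0.61 and by 0.87. Ppp1r15b, the constitutive counterpart of Ppp1r15a, rose by 1.88 in PBS and by 1.53 with spermine, and Impact fell by 1.03 and by 0.48. None of the 18 responses to IFN-β differed between spermine and PBS by limma's adjusted p, whereas 6 had an unadjusted p under 0.05 and voom called 2.

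Genes known as targets of ATF4 or CHOP were tested for 27 of 38 listed; the other 11, among them Fgf21, Cth and Cbs, did not reach the minimum level. With spermine 15 rose and 2 fell at 0 h, and 15 rose and none fell at 3 h, and their median log2 changes were 0.72 and 0.35, where all genes had 0.013 and -0.0028. Of all genes 22.0% rose and 19.2% fell at 0 h, and 19.9% rose and 20.6% fell at 3 h. Gdf15, a stress cytokine, went from 3.38 ± 0.784 to 118 ± 40.3 FPKM at 0 h (4.73 ± 0.26 SE, adjusted p = 3.9e-05) and from 1.33 ± 0.572 to 99.5 ± 5.10 at 3 h (5.45 ± 0.26, adjusted p = 2.3e-05). The cystine importer Slc7a11 rose by 3.68 and 3.66 and the autophagy receptor Sqstm1 by 2.35 and 2.80; the antioxidant factor NRF2 is also known to drive both genes. Chac1, which degrades glutathione, rose by 1.60 and 1.37, and Eif4ebp1, a repressor of translation, by 1.21 and 1.39. Asns, the asparagine synthetase often used as an ATF4 marker, rose by 0.80 and 0.36.

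Within that list, carriers and enzymes of amino acid metabolism did not move alike. Of the 7 amino acid carriers and carrier subunits tested, Slc7a11, Slc3a2 (1.40 and 1.26), Slc38a2 (1.18 and 1.39), Slc6a9 (1.83 and 1.15) and Slc7a1 (0.78 and 0.34) rose at both times. Slc7a5 rose at 0 h (0.70) and had a change of 0.16 at 3 h that did not pass, and Slc1a5 passed at neither time (-0.29 and 0.28). Of the enzymes of serine, glycine and proline synthesis, Phgdh (0.24 and 0.33), Psat1 (0.20 and 0.06), Psph (-0.12 and -0.04), Shmt2 (0.08 and 0.15) and Aldh18a1 (-0.19 and -0.05) passed at neither time. The 95% interval of Phgdh, the widest of these 5 at the upper end, reached 0.54 at 0 h and 0.63 at 3 h. Mthfd2, a folate enzyme of the same list, was higher with spermine at 0 h. It stood at 6.14 ± 0.548 FPKM in PBS and 15.9 ± 0.419 in spermine (mean ± SD). At 3 h its levels were 20.0 ± 1.92 in PBS and 17.6 ± 0.374 in spermine. The carriers and enzymes named here without a call, and their grouping, were chosen after their values were seen, and no difference between the groupings was tested. Pck2 (-0.69) and Gpt2 (-0.42), which feed mitochondrial metabolites into synthesis, fell at 0 h.

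**Figure D4:**
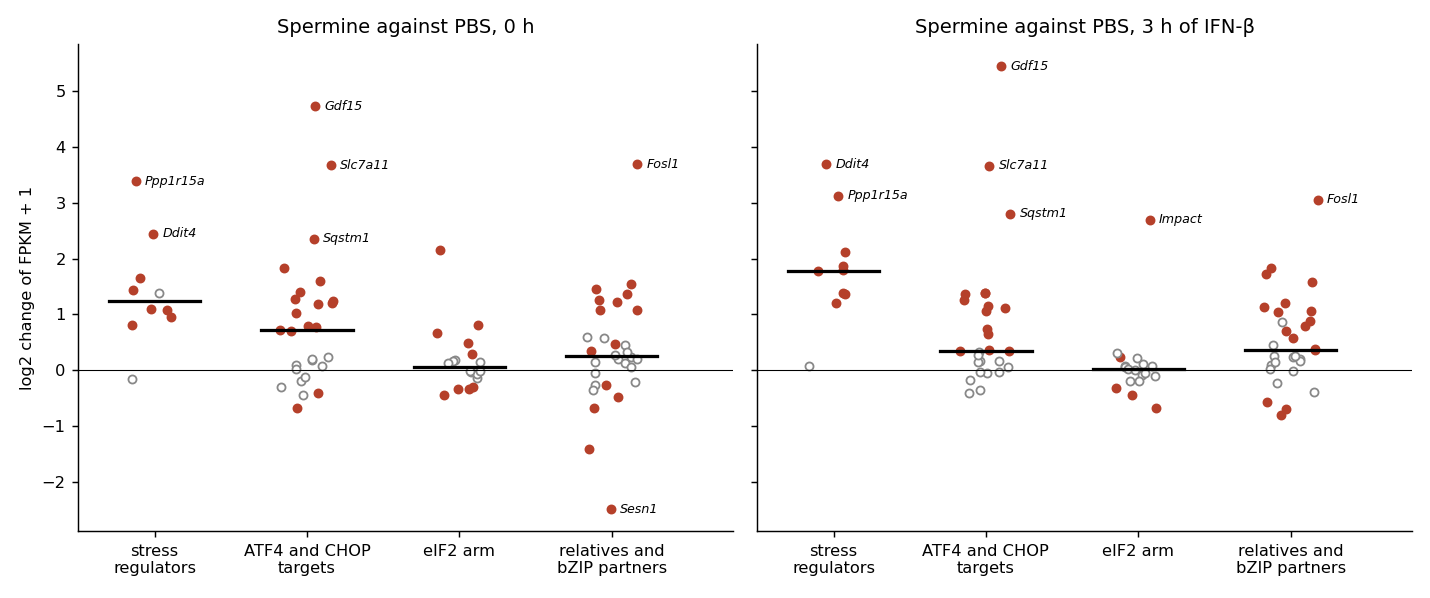
Log2 change of FPKM + 1 between spermine and PBS (vertical axis), left at 0 h and right after IFN-β, for the 10 stress regulators, 27 ATF4 and CHOP targets, 18 genes of the eIF2 arm and 30 relatives and bZIP partners; filled points have an adjusted p under 0.05 and bars are medians. The medians of the stress regulators, 1.24 and 1.78, are above those of the other lists, and Gdf15 has the largest change at both times.

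With IFN-β the targets went both ways, 6 rising and 7 falling in PBS, and 5 rising and 6 falling with spermine. The count of 11 with spermine was lower without spermine 0 h replicate 1 or either spermine 3 h library. The number called over all genes was lower there too. The shares changed, 48.1% and 40.7%, are near the 49.6% and 41.7% of all genes. Mthfd2, an enzyme of mitochondrial folate metabolism, rose in PBS (1.56, adjusted p = 1.1e-05) and had a change of 0.14 with spermine. Bcl2l11, a promoter of cell death, fell in PBS by 1.09 and with spermine by 0.21. Slc7a11 fell by 0.64 and by 0.65. The response differed between spermine and PBS for 4 of the 27, positively for Bcl2l11 (0.88) and Pck2 (0.85) and negatively for Mthfd2 (-1.42) and Ero1l (-0.63). These 14.8% are near the 13.6% of all genes. That count was lower without PBS 0 h replicate 2 or either spermine 3 h library. It was also lower without replicate 1 of PBS 3 h or of spermine 0 h. Fewer of all genes were called in those fits as well.

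Relatives of the 10 genes and other bZIP factors were tested for 30 of 31, all but Trib2. With spermine 10 rose and 5 fell at 0 h, and 14 rose and 3 fell at 3 h, with median log2 changes of 0.26 and 0.37 beside 0.013 and -0.0028 over all genes. The shares changed were 50% and 56.7%, where 41.2% and 40.5% of all genes changed. The AP-1 subunit Fosl1 had the largest rise, from 0.816 ± 0.003 to 22.4 ± 0.029 FPKM at 0 h (3.69 ± 0.11 SE, adjusted p = 5e-06) and from 0.572 ± 0.216 to 12.03 ± 1.26 at 3 h (3.05 ± 0.11, adjusted p = 8.6e-06). Mafk rose by 1.46 and 0.79, Fosl2 by 1.37 and 1.83, Atf1 by 1.26 and 1.204 and Fosb by 1.22 and 1.57. Jund rose at 3 h by 1.72 (± 0.38 SE, adjusted p = 0.011). Atf6, a sensor of the endoplasmic reticulum, fell by 0.26 and by 0.81, and Batf fell at 0 h by 0.68. Maf, a large Maf factor of macrophages, went from 23.9 ± 2.84 FPKM in PBS to 8.29 ± 0.839 in spermine at 0 h (-1.42 ± 0.11 SE, adjusted p = 1.3e-04) and had 26.7 ± 1.99 and 31.8 ± 1.26 at 3 h (0.25, adjusted p = 0.11). Cebpa, the C/EBP of myeloid differentiation, rose at 3 h only by the test (1.05, adjusted p = 0.017), with 0.44 at 0 h.

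The 3 sestrins took different courses. Sesn2 rose with spermine at both times, as above. Sesn1 went from 20.98 ± 1.19 FPKM in PBS at 0 h to 2.90 ± 0.115 with spermine at 0 h (-2.49 ± 0.09 SE, adjusted p = 7.6e-06), and to 2.38 ± 0.270 with IFN-β in PBS (-2.70 ± 0.09, adjusted p = 6.5e-07). At 3 h Sesn1 was also lower with spermine than with PBS (-0.58 ± 0.09, adjusted p = 0.0024). Sesn3 stood at 0.464 ± 0.040 FPKM in PBS at 0 h, 4.91 ± 0.353 in PBS at 3 h, 3.27 ± 0.403 in spermine at 0 h and 2.66 ± 0.217 in spermine at 3 h. It therefore rose with spermine at 0 h (1.54, adjusted p = 8e-05) and fell with it at 3 h (-0.69, adjusted p = 0.0023). The IFN-β responses differed between spermine and PBS for Sesn1 (1.92) and Sesn3 (-2.23), both with adjusted p = 0.0013.

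With IFN-β, 9 of the 30 relatives rose and 9 fell in PBS, and 11 rose and 11 fell with spermine. The count of 22 with spermine was lower without spermine 0 h replicate 1 or either spermine 3 h library. The number called over all genes was lower there too. The shares changed were 60.0% and 73.3%, where 49.6% and 41.7% of all genes changed. Mafk, a small Maf partner, rose by 3.05 and 2.38, the repressor Nfil3 by 1.39 and 1.44, and Junb by 1.00 and 1.48. Cebpa fell by 1.85 and by 1.24. The responses of 9 of the 30 differed between spermine and PBS, 5 positively (Maf by 1.67) and 4 negatively, where 13.6% of all genes differed, 5.82% positively and 7.75% negatively. That count was lower without any single PBS 0 h or spermine 3 h library. It was also lower without replicate 1 of PBS 3 h or of spermine 0 h. Fewer of all genes were called in those fits as well.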

How the data were processed

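The labels give poly(A)-selected RNA sequencing of 8 libraries. Per the file headers, the authors deposited FPKM per gene. Per the submitters' processing notes, HISAT2 2.0.5, featureCounts 1.5.0-p3 and DESeq2 1.20.0 were used with GRCm38; tools are named there without their role. Multiplied by gene length, 100% of the values were whole multiples of a library's smallest step (tolerance 0.001 of a read), and reads rebuilt this way gave the depth. Genes with at least 1 FPKM in at least 2 libraries (11421) were fitted with limma 3.58.1 in R 4.3.3 on log2(FPKM + 1) as 4 group means, with 4 residual degrees of freedom, an empirical Bayes trend (2.83 prior degrees of freedom), two-sided tests and Benjamini-Hochberg adjustment over all genes of each of 5 comparisons. Tested on simulated data for spermine at 0 h (10916 genes), it called 0.0933% of unchanged genes, 71.6% of log2 changes of 1 and 99.0% of 2. The simulation gave every gene the same dispersion, left most genes unchanged and held no effect of GC content. Its rates may therefore not hold for these data.

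The 10 genes, the lists, the motifs and the rule for named genes were chosen with earlier results of these data known. That rule takes the 10 genes, the eIF2 kinases, up to 5 rising and 3 falling genes of largest change per list and comparison, and the 3 genes most like each regulator (SD of at least 0.5 over the libraries). Alternatives were a pseudocount of 0.1, no filter, TPM rescaling, quantile normalization, limma voom on rebuilt reads, a fit of only the groups compared, a replicate block and leaving out each library; the GC correction and a crossed block were added after seeing the data. Promoter windows are from RefSeq; protein sequences were not used here.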

Additional observations from a re-analysis of the deposited data

Results flagged for a closer look

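The results listed here are those whose IFN-β response differed between spermine and PBS by limma's test of the difference itself (log2, spermine minus PBS). Among the 10 stress regulators these were Atf3 (0.55), Ddit3 (0.69) and Ddit4 (1.24), all higher with spermine. These calls were lost without either PBS 0 h library or spermine 3 h replicate 1. Those fits called fewer of all genes as well. Ddit4 rests on 7 and 12 reads in the PBS 3 h libraries, and its difference was 2.28 with a pseudocount of 0.1. Among ATF4 and CHOP targets the difference was positive for Bcl2l11 (0.88) and Pck2 (0.85) and negative for Mthfd2 (-1.42) and Ero1l (-0.63). Among the relatives and bZIP partners it was positive for Sesn1 (1.92), Maf (1.67), Trib1 (0.68), Fos (0.64) and Fosl2 (0.46). It was negative for Sesn3 (-2.23), Mafk (-0.67) and Fosl1 (-0.63). Mean levels were below 1 FPKM for Fosl1 in both PBS groups and for Sesn3 in PBS at 0 h. Changes there come out too small on this scale, so the size of these 2 differences depends on the scale. With 2 libraries a group, no search for single outlying libraries was made.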

How the results depend on the processing

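Over the single changes of the 10 regulators, 777 of 840 values under the alternatives kept their side of the threshold (16 of these, past it in neither fit, turned their sign), 37 came to pass it, 25 no longer passed it and 1 called value turned its sign, Atf3 with IFN-β in PBS after quantile normalization (-0.13). The cause was not tested. Part of the 840 values had a log2 change fixed by the design. Leaving out a library outside a comparison, or adding a replicate block, alters only the error and p of that comparison. The share that kept its side is therefore no full measure of how far the results depend on processing. Changed regulators with IFN-β and spermine numbered 3, but 5 after TPM rescaling, 5 in voom and 6 after the GC correction. Over all genes those fits called 6397, 4937 and 5482, against 4768. For the difference of the responses, changed regulators numbered 5 after the GC correction, which called 2110 of all genes, against 1550. Counts of the regulators also moved with a library left out, as did those of all genes. Of the eIF2 arm, 14 changed with IFN-β in PBS and 14 with IFN-β and spermine after TPM rescaling. Over all genes that rescaling called 8006 and 6397, of which 6314 and 5022 were lower, against 5661 and 4768 called without it. These counts of 14 are therefore not read as a result of the eIF2 arm. In a fit of only those groups, 3 of the eIF2 arm changed with spermine at 3 h. That fit called 3804 of all genes, against 4626. The leave-one-out counts of the eIF2 arm were 3 to 9 for spermine at 0 h, 2 to 5 at 3 h and 0 to 1 for the difference. That difference had 1 call with a pseudocount of 0.1, 2 after TPM rescaling, 2 in voom and 2 after the GC correction. The difference for targets had 2 calls with no filter, 9 after the GC correction and 2 to 5 with a library left out, and targets with IFN-β and spermine had 4 to 11. Relatives gave 9 to 21 for IFN-β with spermine and 4 to 7 for the difference. The numbers 1 and 2 of the libraries are not said to mark a pairing, and their deviations correlated between groups with r from -0.126 to 0.371. Among PBS 0 h, PBS 3 h and spermine 0 h, r was 0.229, 0.246 and 0.371. Between spermine 3 h and these groups, r was -0.061, -0.089 and -0.126. Whether the libraries are paired by number was not tested. With the replicate block 7 regulators changed with IFN-β in PBS and 4 with IFN-β and spermine. It gave 9 and 9 with spermine at 0 h and 3 h, and 3 in the difference, where the eIF2 arm had 3. Over all genes it called, in that order, 5956, 5033, 4996, 4978 and 1813. Crossing the numbers of the spermine 3 h libraries was added after seeing the data, so its calls are no separate support. With it, 5 regulators changed with IFN-β and spermine, where 5866 of all genes did. Of the eIF2 arm 8 changed with spermine at 3 h, where 5840 of all genes did. In the difference 4 of the eIF2 arm and 9 targets changed, where 2843 of all genes did. Over all genes voom on rebuilt reads called 5944, 4937, 5279, 4826 and 1538 genes, against 5661, 4768, 4706, 4626 and 1550. Depth limits Ddit4 in PBS at 3 h. With 2 libraries a group, small changes could be missed.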
